A study of Mus musculus with 34 samples.

Results

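Endothelial cells of mouse mammary tumours were picked out of single-cell RNA sequencing by their genes. The cells were chosen by these measured counts: a cell was taken as endothelial if it held at least 1 UMI (a unique molecular identifier, 1 per captured RNA molecule) of at least 2 of the 4 genes Pecam1, Cdh5, Kdr and Egfl7, no UMI of Ptprc, Epcam or Cd3e, and fewer than 5 UMIs of Col1a1. Only cells with a minimum of 500 UMIs and 200 genes and with mitochondrial UMIs below 20% were considered. The rule found 137 cells among 43197 kept cells, 112 of them in 10 sorted libraries and 25 in a table of unsorted tumour cells. These genes chose the cells and are therefore a description of them, not a finding.

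The tumours were MMTV-Wnt1 tumours, in which the mammary tumour virus promoter drives Wnt1, transplanted into C57BL6j mice. Cells were pulled out magnetically for CD45 or for CD4/8, so an endothelial cell in those libraries is a cell that came through a sort meant for immune cells, and its share is not the share of endothelium in the tumour. Doxorubicin, a DNA-damaging anthracycline, was given as 5 consecutive doses of 4 mg/kg and tumours were taken 48 h after the last dose. That group had 2 CD45+ libraries and 1 CD4/8+ library, and untreated tumours likewise had 2 CD45+ libraries and 1 CD4/8+ library. A further 4 CD4/8+ libraries came from tumours given the same doxorubicin course and, 48 h later, 3 antibody doses at intervals of 72 h, with harvest 24 h after the last. They received 200 ug anti-PD1 with 200 ug IgG, 200 ug anti-CTLA4 with 200 ug IgG, 200 ug of both antibodies, or 400 ug IgG alone. The unsorted table pools a doxorubicin-treated and an untreated tumour in 2 barcode sets that the labels do not tie to a tumour. Nothing in the labels says that libraries of a group came from separate mice, so p-values measure only the spread between these libraries, which may be technical.

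Endothelium lines every blood vessel and controls what leaves the blood. In inflamed tissue the small veins that follow the capillaries carry the adhesion molecules P-selectin (Selp), E-selectin (Sele), Icam1 and Vcam1, on which leukocytes slow, stop and cross the wall. Capillaries carry other genes, such as Gpihbp1, which holds lipoprotein lipase at the vessel surface, and growing vessel tips carry Apln, Esm1 and Angpt2.

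The identity of the cells was checked with 22 endothelial genes that the rule did not use. The median cell held 20 of the 22, 132 of 137 cells held at least 3 and 122 held at least 8, and 111 cells had all 4 rule genes. Esam, a junction protein, was seen in 89.1% of the cells, Flt1, a VEGF receptor, in 87.6%, the surface glycoprotein Emcn in 87.6%, and Tie1, an orphan receptor of the angiopoietin system, in 78.8%. At the edge of the rule, 14 cells with 2 rule genes held a median of 4.5 of the 22 genes, whereas 175 cells with 1 rule gene, which stayed outside, held a median of 0. The 5 cells with fewer than 3 of the 22 genes were spread over 5 libraries, with 1 cell in each. These were CD45+ doxorubicin library 1, CD45+ untreated libraries 1 and 2, and the anti-PD1 and anti-CTLA4 libraries. Such cells therefore weigh more on the 21 untreated cells than on the 70 with doxorubicin.

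Markers of other cell types were low in most libraries. Summed over 9 fibroblast genes the level was at most 0.386 UMIs per 10000 in any library, with 2 of the genes at 0, and over 8 T cell genes at most 1.29 with 1 gene at 0. The 10 epithelial genes summed to between 0 and 1.48 per 10000, and the 8 platelet genes, 4 of them at 0, to between 0.643 and 3.06. Over 11 immune genes the sum was between 0.196 and 1.93 in the doxorubicin 48 h libraries and between 0.533 and 8.73 in the untreated ones. Lymphatic genes were nearly absent: 3 of 7 were at 0, and the sum was 0.322 to 2.57 per 10000 and, outside the library with both antibodies, mostly Flt4, which blood vessels also use. Exceptions were the anti-CTLA4 library, with 64.3 UMIs per 10000 of 7 neutrophil genes, and the unsorted table, with 138 per 10000 of haemoglobin and related red cell genes. Nearly all of each came from a single cell. Only 1 of the 3 anti-CTLA4 cells held 3 or more of the 125 neutrophil UMIs. Only 1 of the 25 unsorted cells held 5 or more of the 5715 red cell UMIs.

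The share of endothelial cells among kept cells was higher in the doxorubicin than in the untreated libraries of both sorts. The counting intervals overlapped in the CD45+ sort and did not in the CD4/8+ sort. The order of the shares depended on the exclusions of the rule. Before them, cells with at least 2 rule genes were more frequent in every untreated library than in any doxorubicin library. The counts (CD45+ 1, CD45+ 2, CD4/8+) were 26 of 1480, 41 of 3996 and 100 of 7623 with doxorubicin. Untreated they were 91 of 3581, 51 of 1797 and 78 of 3838. A Ptprc UMI was held by 14, 15 and 35 of these cells with doxorubicin and by 55, 39 and 42 untreated. CD45+ doxorubicin libraries 1 and 2 held 8 of 1480 and 14 of 3996 cells, which is 0.541% (95% exact Clopper-Pearson interval 0.234 to 1.06) and 0.350% (0.192 to 0.587). CD45+ untreated libraries 1 and 2 held 7 of 3581 and 6 of 1797 cells, or 0.195% (0.0786 to 0.402) and 0.334% (0.123 to 0.725). The mean was 0.445% ± 0.134 with doxorubicin and 0.265% ± 0.0979 untreated (SD, n = 2 each), a difference of 0.181 percentage points with a two-sided exact permutation p of 0.333, the smallest that 2 libraries against 2 allow. In the CD4/8+ sort the doxorubicin library held 48 of 7623 cells, 0.630% (0.465 to 0.834), and the untreated library 8 of 3838 cells, 0.208% (0.0900 to 0.410). The 4 later libraries held 14 cells (anti-PD1), 3 (anti-CTLA4), 2 (both antibodies) and 2 (IgG), at shares of 0.220%, 0.0871%, 0.0580% and 0.0553%, with 1 library per group and no test. All intervals cover counting error only.

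**Figure D1:**
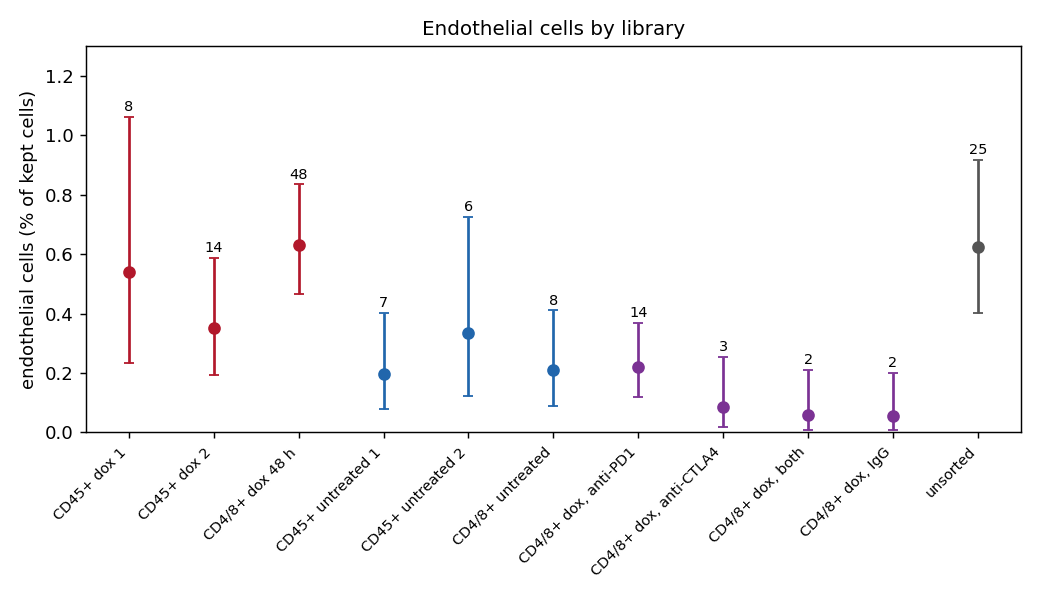
Endothelial cells as a percentage of kept cells (y axis) in each library (x axis), with exact 95% intervals as bars and the number of endothelial cells above each. The CD4/8+ doxorubicin library stands at 0.630% and its untreated counterpart at 0.208%, while the intervals of the 4 CD45+ libraries overlap.

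A few cells weighed heavily in the summed counts. The cells held a median of 10688 UMIs, and the summed endothelial UMIs per library were 196762, 203921 and 459459 in the doxorubicin libraries (CD45+ 1 and 2, CD4/8+) and 48088, 147697 and 168745 in the untreated ones in the same order. A single cell of 95543 UMIs gave 48.6% of CD45+ doxorubicin library 1, and a single cell of 83737 UMIs gave 56.7% of CD45+ untreated library 2. Levels below are UMIs per 10000 summed over the endothelial cells of a library, listed in the order CD45+ 1, CD45+ 2, CD4/8+. No doublet caller was run, and no count profile occurred in more than 1 kept cell.

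Doxorubicin-treated and untreated tumours were compared gene by gene over the 3 libraries of each group, with the sort as a covariate. No gene passed: edgeR's quasi-likelihood test called 0 of 3087 genes (0%) at a Benjamini-Hochberg adjusted p under 0.05, with 345 genes at an unadjusted p under 0.05, 226 higher and 119 lower with doxorubicin, and the lowest adjusted p at 0.106. DESeq2 on the same sums called 19 genes, 14 higher and 5 lower, among them Ackr1, Vwf, Selp, Icam1, Edn1 and Nfkbia (higher) and Mest, Gpihbp1, Apln and Fabp5 (lower). All 3 doxorubicin libraries lay above all 3 untreated libraries for 312 genes, 10.1% of those tested, and below for 178, or 5.77%. The median log2 difference over all genes was -0.00. What follows gives the values of genes by role, and a gene described as higher or lower there did not pass the edgeR test.

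Most genes of the venous list were higher with doxorubicin. Of the 8 venous genes tested, 5 had all doxorubicin libraries above all untreated ones and none had them below. Over all genes tested those shares were 10.1% and 5.77%. The median log2 difference of the list was 2.04. The list was chosen with earlier results of these data known. It includes Vwf and Lrg1, which were not among the planned venous markers, and Vwf is also 1 of the 22 endothelial genes. Summed, the list made up 28.0, 73.8 and 30.2 UMIs per 10000 with doxorubicin and 13.1, 4.81 and 7.05 untreated, so the groups did not overlap. Without the cells of over 50000 UMIs the sums were 36.7, 73.8 and 30.2 with doxorubicin and 13.1, 7.97 and 7.05 untreated. Selp and Vwf are also made by platelets, whose 8 marker genes summed to between 0.687 and 0.936 per 10000 with doxorubicin and between 0.652 and 1.69 untreated.

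Selp, the P-selectin that vessel walls put on their surface to catch leukocytes, stood at 5.69, 22.4 and 2.89 UMIs per 10000 with doxorubicin and at 0.624, 0 and 0 untreated. The counts behind this were 112, 456 and 133 UMIs with doxorubicin and 3, 0 and 0 untreated, and a count of 0 allows up to 0.203 and 0.178 per 10000 in CD45+ untreated library 2 and the CD4/8+ untreated library. The ratio of the summed levels was 99.0 (95% counting interval 33.7 to 481). That interval treats each UMI as independent and leaves out the spread between cells and libraries. The edgeR log2 difference was 6.47 ± 1.03 (SE) with an adjusted p of 0.106. Every doxorubicin library was above every untreated one, but the spread among the doxorubicin libraries was as large as their mean, at 10.3 ± 10.5 against 0.208 ± 0.360 (SD, n = 3 each).

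The Selp signal sat in a minority of cells. It was found in 27 of 70 endothelial cells with doxorubicin and in 3 of 21 untreated, each of the 3 with 1 UMI, while 0.837% of the other kept cells had a UMI with doxorubicin and 0.305% untreated. Median depth was 10156 UMIs for endothelial cells with doxorubicin and 9129 untreated, against library medians of 3986 to 6696 and 9508 to 10494 for the other cells. With each cell thinned to 2000 UMIs, leaving out 7 shallower cells with doxorubicin and 4 untreated, Selp was found in 18 of 63 cells and in 2 of 17. In CD45+ doxorubicin library 1 a single cell carried 110 of the 112 Selp UMIs.

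Ackr1, a receptor of venules that binds chemokines without signalling, was found in the doxorubicin group only in cells that also had Selp. Its levels were 1.12, 6.47 and 1.74 per 10000 with doxorubicin (22, 132 and 80 UMIs), and 0 UMIs were seen in all 3 untreated libraries. By counting error alone this is at least 33.1-fold higher with doxorubicin, with the untreated group set at 3 counts. That bound leaves out the spread between cells and libraries. A single cell held 95.5%, 44.7% and 80.0% of the Ackr1 UMIs of the 3 doxorubicin libraries. The 14 doxorubicin cells with an Ackr1 UMI were all among the 27 with Selp, and 0 of the other 43 had one. In the untreated group 0 of 21 cells had an Ackr1 UMI, which by counting error alone allows up to 14.3% of cells with a UMI and sets no limit on cells that express the gene. The adjusted p was 0.197 with edgeR and 0.000187 with DESeq2, and ranged from 4.59e-14 to 0.502 over the alternatives.

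Vwf, the von Willebrand factor that endothelium stores and releases for clotting, reached 6.10, 19.7 and 7.77 per 10000 with doxorubicin and 0.208, 1.02 and 1.78 untreated. The groups were apart, at 11.2 ± 7.40 with doxorubicin and 1.0005 ± 0.785 untreated (SD, n = 3 each), a log2 difference of 3.30 ± 0.64 (SE, edgeR adjusted p = 0.171). It was a wider signal than Selp, in 60 of 70 cells with doxorubicin and in 9 of 21 untreated, and after thinning in 45 of 63 and 3 of 17. Lrg1, a secreted glycoprotein of venular endothelium, stood at 9.76, 13.8 and 9.73 with doxorubicin and at 5.82, 0.203 and 1.19 untreated (edgeR log2 difference 2.43 ± 0.92, adjusted p = 0.399). Ephb4, the receptor that marks veins in development, was at 1.42, 1.47 and 1.20 with doxorubicin and 0.624, 0.745 and 0.593 untreated, also without overlap. Nr2f2, the transcription factor of venous identity, overlapped between the groups, at 0.762, 3.14 and 1.11 with doxorubicin and 2.29, 0.135 and 0.119 untreated. Aplnr, the apelin receptor, was the venous gene with a negative log2 difference, -0.40 ± 0.46 (SE, edgeR adjusted p = 0.793), at 2.24, 0.981 and 1.59 with doxorubicin and 3.33, 1.29 and 1.96 untreated, with overlap.

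The adhesion molecules that work beside Selp differed among themselves. Over 12 adhesion genes, Selp among them, the summed level was 22.7, 48.5 and 19.1 per 10000 with doxorubicin and 10.6, 15.5 and 13.8 untreated. Of the 8 that were tested, 4 had an unadjusted p under 0.05 on the higher side, Selp among them, and 1 on the lower. Over all 3087 genes tested those counts were 226 and 119. The median log2 difference of the list was 1.21. Selp and Icam1 were the 2 tested genes of the list with every doxorubicin library above every untreated one, beside 10.1% of all genes tested. Icam1, the integrin ligand on which leukocytes stop, was at 4.88, 5.79 and 3.63 with doxorubicin and 0.832, 0.474 and 2.252 untreated (edgeR log2 difference 2.06 ± 0.53, adjusted p = 0.197). It was seen in 54 of 70 cells with doxorubicin and in 8 of 21 untreated, but other kept cells carry it too, 49.9% with doxorubicin and 53.4% untreated. Sele was at 2.44, 3.14 and 0.566 with doxorubicin and 0.624, 0 and 0 untreated, so CD45+ untreated library 1 lay just above the CD4/8+ doxorubicin library. Vcam1 also overlapped, at 0.915, 5.88 and 4.20 with doxorubicin and 0.208, 1.42 and 1.42 untreated. Icam2, a constitutive adhesion molecule of resting endothelium, went the other way, at 1.73, 2.94 and 2.24 with doxorubicin and 2.29, 6.84 and 5.33 untreated, with overlap.

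**Figure D2:**
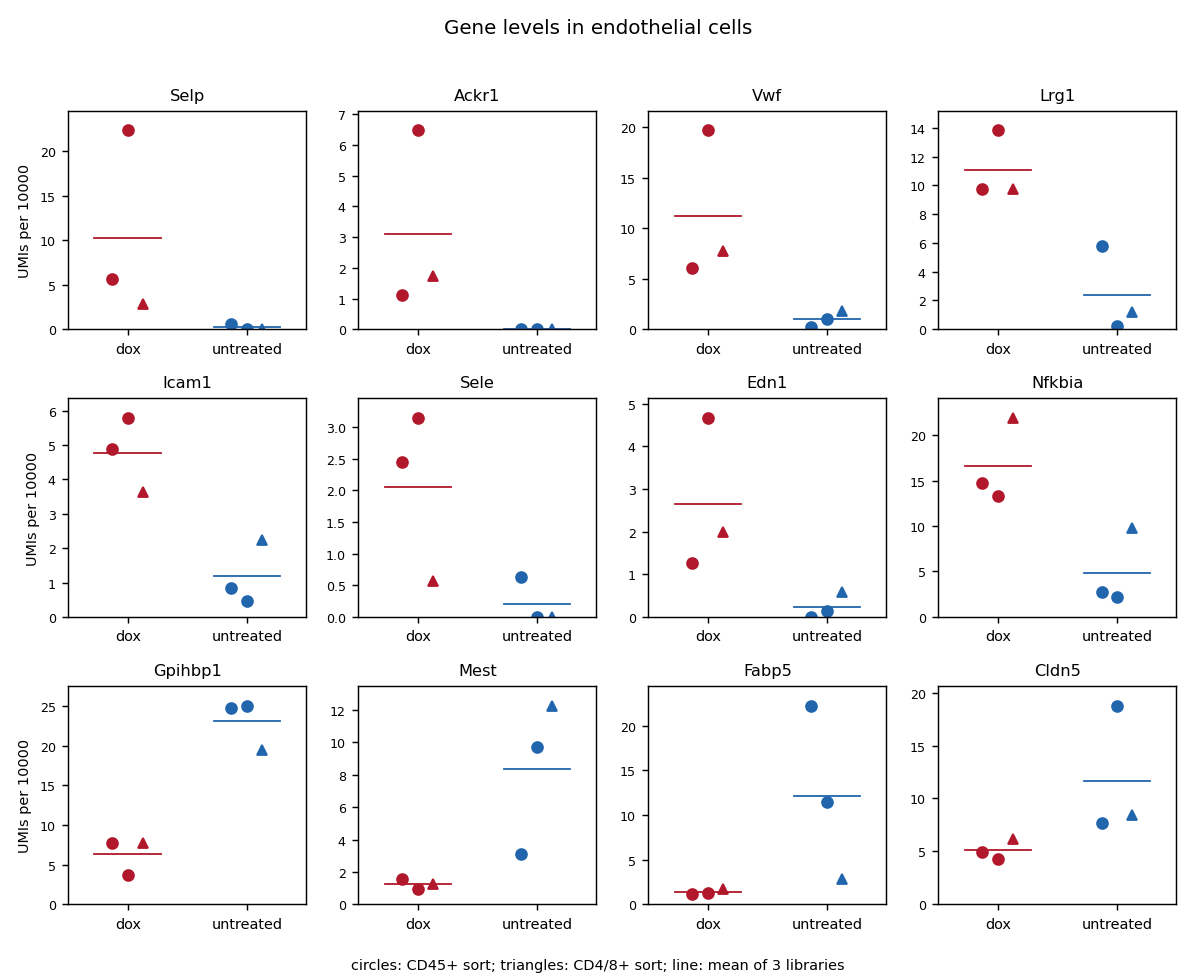
Levels of 12 genes in endothelial cells (y axis, UMIs per 10000 summed over the cells of a library), with doxorubicin 48 h libraries in red at the left of each panel and untreated libraries in blue at the right, circles for the CD45+ sort, triangles for the CD4/8+ sort and a line at the mean of 3 libraries. The doxorubicin points lie above the untreated ones for Selp, Ackr1, Vwf, Lrg1, Icam1, Edn1 and Nfkbia and below them for Gpihbp1, Mest, Fabp5 and Cldn5, and overlap for Sele.

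Gpihbp1, the capillary gene introduced above, was lower with doxorubicin. The level was 7.78, 3.68 and 7.70 per 10000 with doxorubicin and 24.7, 25.1 and 19.5 untreated, and the untreated libraries were close to each other. The means were 6.39 ± 2.35 with doxorubicin and 23.1 ± 3.12 untreated (SD, n = 3 each), an edgeR log2 difference of -1.90 ± 0.36 (SE, adjusted p = 0.117). Gpihbp1 was found in 45 of 70 cells with doxorubicin and in 18 of 21 untreated, and in 0.246% and 0.272% of the other cells, and thinning gave 28 of 63 cells with doxorubicin and 13 of 17 untreated. Leaving out the cells of over 50000 UMIs gave a log2 difference of -2.17. Fabp4, a fatty acid carrier, was at 17.7, 18.4 and 13.8 with doxorubicin and 149, 28.7 and 22.99 untreated, and 74.0% of its UMIs in CD45+ untreated library 1 came from a single cell. The water channel Aqp1 stood at 17.5, 27.7 and 16.1 with doxorubicin and 25.6, 9.75 and 4.56 untreated, with overlap. The whole capillary list therefore overlapped too, at 66.5, 62.5 and 63.0 with doxorubicin and 236, 79.8 and 59.0 untreated.

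Within the doxorubicin group Selp and Gpihbp1 mostly lay in different cells. Of its 70 cells, 27 had Selp and 45 had Gpihbp1, and 9 had both and 7 had neither. Summed over the cells with Selp, Gpihbp1 stood at 3.20 UMIs per 10000, and over those without Selp at 9.07. That second value is still below the 3 untreated libraries at 19.5 to 25.1, so cells without Selp also had less Gpihbp1 than untreated endothelium, a difference that was not tested. Vwf was similar in both, at 10.9 per 10000 in cells with Selp and 9.75 in those without.

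**Figure D3:**
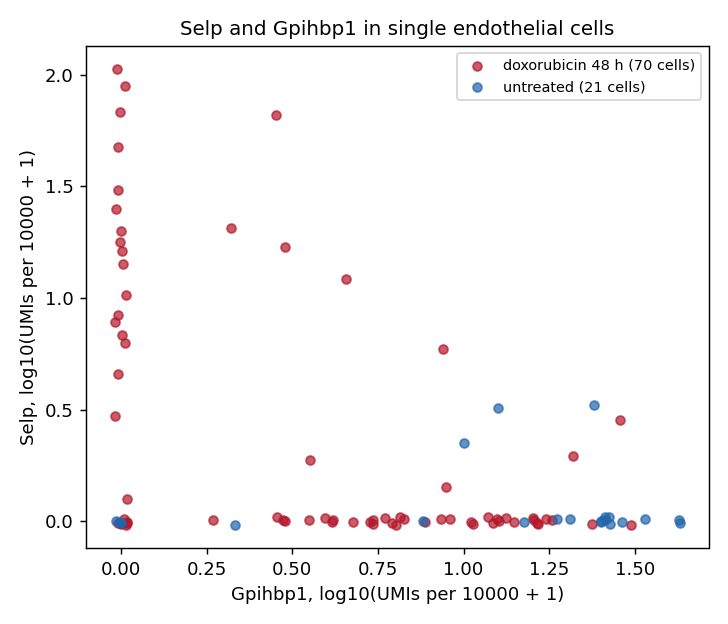
Each point is 1 endothelial cell, with Gpihbp1 on the x axis and Selp on the y axis, both as log10 of UMIs per 10000 plus 1, and a small random shift to part points at 0; red cells are doxorubicin 48 h (70) and blue cells untreated (21). The cells highest in Selp are red and most of them have no Gpihbp1, while the 3 blue cells with Selp hold 1 UMI each and have Gpihbp1.

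Some genes of clotting and vessel tone were higher with doxorubicin, and Vwf is counted both here and in the venous list. The 13 genes of coagulation and tone, Vwf among them, summed to 23.2, 50.02 and 34.8 per 10000 with doxorubicin and 13.5, 13.1 and 19.7 untreated. The groups were apart only with Vwf counted: without it CD45+ doxorubicin library 1 lay below the CD4/8+ untreated library. Edn1, the vasoconstrictor endothelin, was at 1.27, 4.66 and 1.98 with doxorubicin and 0, 0.135 and 0.593 untreated (edgeR log2 difference 3.06 ± 0.76, adjusted p = 0.197), and was found in 38 of 70 cells with doxorubicin and 3 of 21 untreated. Klf4, a flow-responsive transcription factor, was at 3.46, 4.81 and 5.18 with doxorubicin and 2.08, 1.56 and 2.37 untreated. Plat, the tissue plasminogen activator, was the member with every doxorubicin library below every untreated one, at 0.0508, 0.588 and 0.501 with doxorubicin and 0.832, 0.812 and 1.78 untreated. Procr, the protein C receptor, also had a negative log2 difference, -0.54 ± 0.54 (SE, edgeR adjusted p = 0.752), with overlap, at 0.508, 2.11 and 0.805 with doxorubicin and 0.832, 2.71 and 1.01 untreated.

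Among secreted signals, Il6 and Csf3 were almost confined to the doxorubicin group of these 6 libraries. Il6 had 7, 35 and 97 UMIs with doxorubicin and 0, 0 and 1 untreated, in 26 of 70 and 1 of 21 cells. Csf3, which drives neutrophil production, had 10, 40 and 56 UMIs with doxorubicin and none in the untreated libraries, and was seen in 15 of 70 cells with doxorubicin. By counting error alone it was at least 14.97-fold higher at 3 counts for the untreated group. Il6 was found in 2.39% of the other kept cells with doxorubicin and 2.29% untreated, and Csf3 in 7.35% and 6.23%. Neither gene had enough counts to enter the reported edgeR fit. Without the filter on low counts edgeR called both, with an adjusted p of 5.22e-08 for Il6 and 1.78e-08 for Csf3. The interferon-induced chemokine Cxcl10 overlapped at 7.52, 1.86 and 9.86 per 10000 with doxorubicin and 0.416, 0.745 and 5.33 untreated, and Cxcl9 was highest in CD45+ untreated library 2 at 37.5.

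Summed as a list, early-response genes were higher in the endothelial cells and in the other cells alike. Nfkbia, the inhibitor that NF-kB induces to switch itself off, was at 14.7, 13.3 and 21.9 per 10000 with doxorubicin and 2.70, 2.17 and 9.78 untreated (edgeR log2 difference 1.99 ± 0.36, adjusted p = 0.106). All 70 doxorubicin cells had an Nfkbia UMI and 15 of 21 untreated cells did. Among other kept cells 87.9% had one with doxorubicin and 86.3% untreated. Nfkbia is not a member of the list summed below. Ier3, an early-response gene, was at 6.96, 10.1 and 20.02 with doxorubicin and 1.46, 3.86 and 5.81 untreated. The 15 early-response and stress genes summed to 111, 110 and 151 with doxorubicin and 54.3, 67.2 and 90.8 untreated. Of the 14 tested, 5 had all doxorubicin libraries above, beside 10.1% of all genes tested. In the other kept cells of the same libraries the sum of the 15 genes was 150 to 180 with doxorubicin and 80.1 to 113 untreated. The part of their RNA in the endothelial values was not tested.

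Among targets of p53, the DNA damage factor, Cdkn1a, an inhibitor of the cell cycle, had the lowest p. It stood at 3.25, 6.03 and 4.29 per 10000 with doxorubicin and 1.66, 2.57 and 0.652 untreated (edgeR log2 difference 1.54 ± 0.47, adjusted p = 0.272), without overlap. The p53 list of 28 genes summed to 25.6, 30.0 and 27.0 with doxorubicin and 15.8, 19.4 and 19.7 untreated. Of its 8 tested genes 2 had every doxorubicin library above, beside 10.1% of all genes tested, and the median log2 difference was 0.41. Mdm2, which marks p53 for breakdown, overlapped at 0.610, 0.932 and 0.827 with doxorubicin and 0.832, 0.271 and 0.474 untreated. Other kept cells differed by more, with a list sum of 33.0 to 42.8 with doxorubicin and 14.2 to 20.8 untreated.

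Genes lower with doxorubicin, apart from Gpihbp1, were led by Mest, an imprinted gene of growing tissue. Mest was at 1.58, 0.981 and 1.28 per 10000 with doxorubicin and 3.12, 9.75 and 12.3 untreated (edgeR log2 difference -2.73 ± 0.47, adjusted p = 0.106), in 27 of 70 cells with doxorubicin and 17 of 21 untreated. A single cell held 96.5% of the Mest UMIs of CD45+ untreated library 2, and without the cells of over 50000 UMIs the groups overlapped. Fabp5, another fatty acid carrier, was at 1.22, 1.32 and 1.74 with doxorubicin and 22.3, 11.4 and 2.84 untreated (edgeR adjusted p = 0.197). Its mean endothelial level was only 1.29 times that of the other kept cells, and the part of their RNA was not tested. Cldn5, the main tight junction claudin of endothelium, was at 4.98, 4.27 and 6.22 with doxorubicin and 7.69, 18.8 and 8.47 untreated, and the 10 junction genes summed to 22.8, 23.5 and 22.9 with doxorubicin and 27.9, 39.8 and 29.4 untreated. The laminin chain Lamc1 stood at 3.15, 2.60 and 1.85 with doxorubicin and 5.61, 7.04 and 3.79 untreated, whereas Col18a1, the collagen that yields endostatin, was at 9.81, 11.4 and 8.40 with doxorubicin and 2.50, 3.11 and 7.41 untreated. The basement membrane list as a whole overlapped, at 189, 133 and 119 with doxorubicin and 165, 180 and 146 untreated. Without the cells of over 50000 UMIs it did not, at 136, 133 and 119 with doxorubicin and 165, 178 and 146 untreated.

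Receptors for vessel growth mostly overlapped between the groups. Flt1 was at 12.2, 10.1 and 7.16 per 10000 with doxorubicin and 13.5, 13.7 and 10.3 untreated, and Tie1 at 3.71, 4.61 and 3.07 with doxorubicin and 4.16, 4.20 and 2.96 untreated. The co-receptor Nrp1 was the exception among the 9 tested, with every doxorubicin library above every untreated one, at 5.54, 4.07 and 3.46 with doxorubicin and 3.12, 2.64 and 2.73 untreated (edgeR adjusted p = 0.577). Over all genes tested 10.1% were apart in that direction. The 9 VEGF and Tie genes tested had a median log2 difference of -0.03, and none had an unadjusted p under 0.05. Mmrn2, an endothelial matrix protein, was also apart between the groups, at 8.49, 9.81 and 7.84 with doxorubicin and 4.16, 3.72 and 3.56 untreated (edgeR log2 difference 1.15 ± 0.32, adjusted p = 0.230).

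Outside the lists, 2 of the lowest p belonged to Fryl and to Tgm2, a transglutaminase that cross-links matrix proteins. Fryl was at 2.29, 3.53 and 2.20 with doxorubicin and 0.416, 0.609 and 0.415 untreated (edgeR log2 difference 2.35 ± 0.42, adjusted p = 0.106), and Tgm2 at 3.05, 3.33 and 2.66 with doxorubicin and 0.832, 0.609 and 0.711 untreated (edgeR log2 difference 2.05 ± 0.39, adjusted p = 0.121). For both genes every doxorubicin library was above every untreated one. The mean endothelial level was 2.49 times that of the other kept cells for Fryl and 0.910 times for Tgm2. The part of their RNA in these values was not tested. In the hypoxia list the lactate dehydrogenase Ldha was at 2.34, 3.29 and 2.72 with doxorubicin and 4.37, 8.80 and 5.27 untreated. Of 8 genes tested 1 had an unadjusted p under 0.05 on the higher side and 3 on the lower, beside 226 and 119 of all 3087 genes.

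In the tip and arterial lists the groups overlapped and single cells held much of some genes. Apln, the apelin of sprouting tips, was at 0.356, 0.147 and 0.435 with doxorubicin and 1.04, 10.8 and 1.42 untreated, and a single cell held 88.7% of it in CD45+ untreated library 2. The tip list summed to 41.9, 61.5 and 36.8 with doxorubicin and 17.7, 105 and 78.1 untreated, so the untreated libraries spanned the doxorubicin ones. The arterial connexin Gja5 was at 0.102, 2.55 and 0.457 with doxorubicin and 0, 0 and 0.948 untreated. In the Notch pathway, which patterns arteries, Nrarp was at 1.07, 1.67 and 0.827 with doxorubicin and 2.70, 2.23 and 2.31 untreated, while Hey1 was at 2.64, 2.06 and 1.15 with doxorubicin and 0.832, 0.542 and 0.948 untreated. The BMP, TGF-beta and ID list summed to 51.5, 38.7 and 39.1 with doxorubicin and 29.3, 25.8 and 34.0 untreated, with Id3, an inhibitor of differentiation factors, at 10.3, 7.50 and 9.25 with doxorubicin and 5.82, 5.89 and 6.34 untreated.

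Dividing endothelial cells were few in these 6 libraries. Summed over 27 G2/M genes the level was 2.54, 0.343 and 1.22 per 10000 with doxorubicin and 1.04, 15.6 and 0.889 untreated, and without the cells of over 50000 UMIs CD45+ doxorubicin library 1 stood at 4.84 and CD45+ untreated library 2 at 0.313. Mki67 was found in 2 of 70 cells with doxorubicin and 2 of 21 untreated, below the 9.92% and 26.3% of other kept cells. The class I antigen presentation genes and both interferon lists overlapped between the groups, with class I genes at 84.7, 76.9 and 161 with doxorubicin and 97.7, 140 and 126 untreated. The class II list was at 0.813, 0.294 and 4.72 with doxorubicin and 4.99, 21.2 and 4.92 untreated, so every doxorubicin library was below every untreated one, the CD4/8+ doxorubicin library only just. Its member Cd74, the invariant chain, had an adjusted p of 0.508 with edgeR and 0.0120 with DESeq2, with a range of 0.0120 to 0.914 over the alternatives. The other kept cells stood far higher in class II, at 13.4 to 32.5 with doxorubicin and 25.7 to 191 untreated, and the part of their RNA in these values was not tested. Cd274, the PD1 ligand, was at 0.966, 0.196 and 0.675 with doxorubicin and 0.208, 0.203 and 0.533 untreated, and 6 of the 14 checkpoint ligands were at 0 in all endothelial cells.

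**Figure D4:**
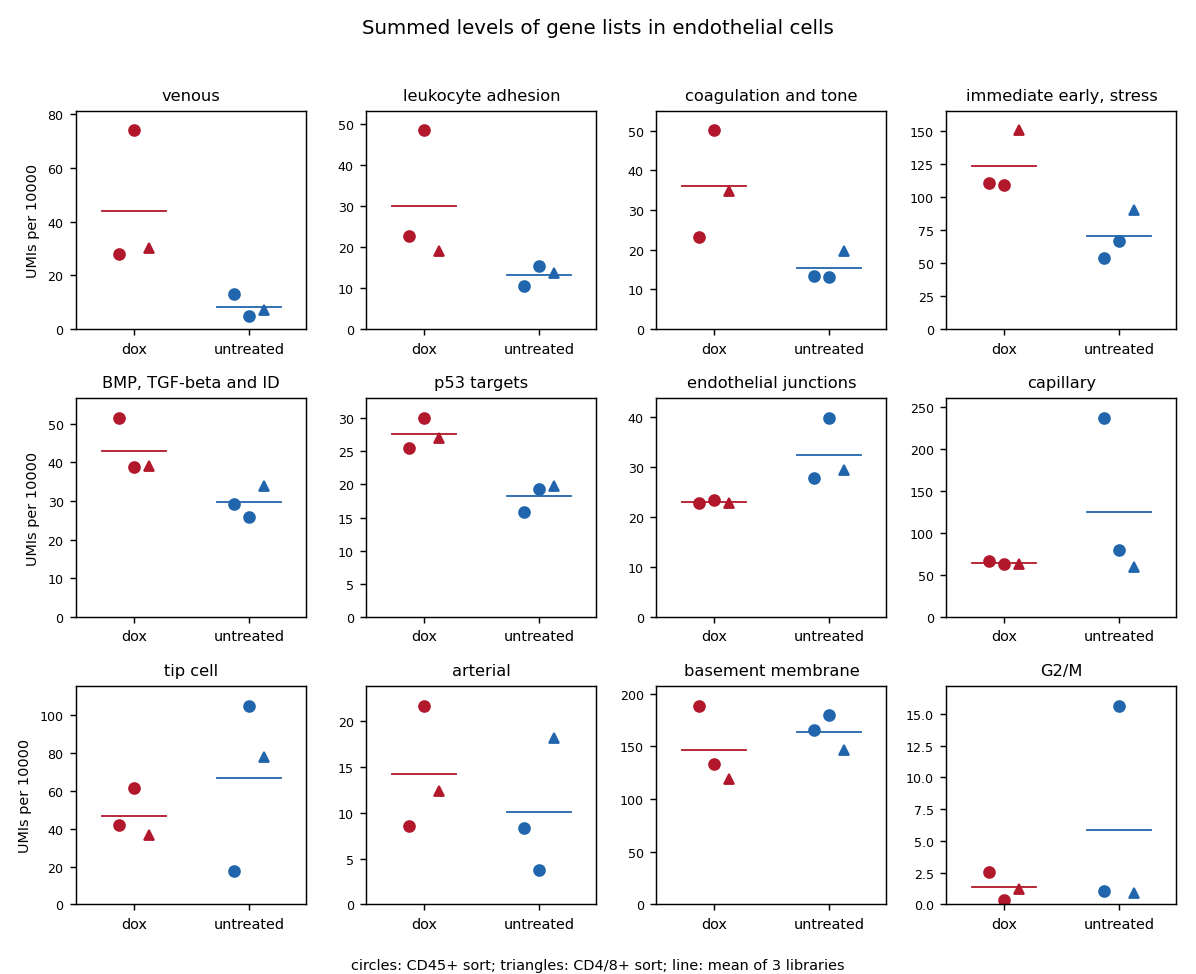
Summed levels of 12 gene lists in endothelial cells (y axis, UMIs per 10000), with doxorubicin 48 h libraries in red at the left of each panel and untreated libraries in blue at the right, circles for the CD45+ sort, triangles for the CD4/8+ sort and a line at the mean of 3 libraries. The groups are apart for the venous, adhesion, coagulation, early-response, BMP, p53 and junction lists and overlap for the capillary, tip, arterial, basement membrane and G2/M lists.

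The libraries taken after antibody treatment held too few cells for more than a list of values, each from 1 library with no test. The 14 cells of the anti-PD1 library had no Selp UMI and no Ackr1 UMI, Vwf at 5.45 per 10000, Gpihbp1 at 22.1 and Flt1 at 29.6. The 3 anti-CTLA4 cells had Selp at 6.68, Vwf at 9.25 and Gpihbp1 at 1.03, beside the neutrophil genes given above, and 13 of the Selp UMIs came from a single cell of 10926 UMIs. The 2 cells with both antibodies were unlike each other: the first held 23 Ackr1 and 97 Fabp4 UMIs and no Gja5, and the second held 32 Gja5, 33 Gja4 and 30 Fbln5 UMIs, genes of arteries, and no Ackr1. Both of the IgG cells held Gpihbp1 (29 and 7 UMIs) and Apln (10 and 21), and neither held Selp or Ackr1. A count of 0 allows up to 0.268 per 10000 in the anti-PD1 library and 0.835 in the IgG library.

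The unsorted tumours gave 6 endothelial cells of 1508 in 1 barcode set and 19 of 2508 in the other, at 0.398% (0.146 to 0.864) and 0.758% (0.457 to 1.18), with no barcode in both sets. The 20 genes most specific to them, by the ratio of their level to that of all other cells, included Aplnr at 437 CPM (counts per 1000000 UMIs) against 0.116 in other cells, Robo4, a guidance receptor of endothelium, at 222 CPM against 0.155, and Gpihbp1 at 2111 CPM against 1.71. Stmn2 led by ratio but came from 1 cell with 22 UMIs, and Nts, neurotensin, came from 4 cells. Sox17 and Mecom, transcription factors of arterial endothelium, Bcl6b, Myct1 and Btnl9 were also among the 20. Selp stood at 0.0724 per 10000 there, Vwf at 3.31, Gpihbp1 at 21.1 and Mest at 9.94. Of these, Gpihbp1 and Mest lay inside the range of the untreated sorted libraries and Selp below every doxorubicin 48 h library. Vwf lay above every untreated and below every doxorubicin 48 h library. These comparisons across sorts were not tested, and the table pools a treated and an untreated tumour.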

How the data were processed

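The authors deposited UMI counts per gene and cell, as 1 matrix for each of 10 sorted libraries, made with Cell Ranger 6.0.0 per the file headers, and 1 pooled table of unsorted cells, for which the submitters' processing notes name Cell Ranger and Seurat without versions. The genome was mm10 per the labels. The matrices carry no gene names, so their 32285 rows were named by the gene order of the pooled table. Row totals correlated between them at 0.954 to 0.984, and at most at 0.354 when shifted by up to 10 rows. A bulk table with 12 columns that could not be tied to samples was not used. Gene lists and members were chosen with earlier results of these data known. The named genes were to be the 15 largest changes each way among called genes, the 2 lowest p of each list and the 20 most specific genes at 50 CPM or more in the unsorted cells. With none called, the 15 lowest p stood in, and the other genes named were chosen after their values were seen.

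Endothelial counts were summed per library and tested with edgeR 4.0.16 (TMM, filterByExpr, robust quasi-likelihood, Benjamini-Hochberg at 0.05), with DESeq2 1.42.0 as an alternative. SE is the log2 difference divided by the square root of F. A planned minimum of 20 cells per library left 1 library and hence no test. The fit without it was chosen after seeing the counts, so its libraries rest on 6 to 48 cells. Levels are per 10000 UMIs. Intervals are at 95%, and a count of 0 is read as up to 3 counts. Doublets were not called. The test was tried on simulated data first.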

Additional observations from a re-analysis of the deposited data

How the results depend on the processing

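The count of genes called, 0 with edgeR, was 19 with DESeq2, 91 without a filter on low counts (13511 genes tested) and 1 (Selp, adjusted p = 0.0313) without cells of over 50000 UMIs. It stayed 0 with RLE size factors, with 3 of 4 rule genes, in the CD45+ sort alone, among genes at 0.5 times the level of other cells or more, and with cells thinned to 2000 UMIs, where 215 genes could be tested. Leaving out each library in turn gave between 0 and 22 calls, with 22 without CD45+ untreated library 1, 6 without CD45+ doxorubicin library 1, 4 without CD45+ doxorubicin library 2 and 2 without CD45+ untreated library 2. Leaving out either CD4/8+ library leaves the CD45+ sort alone. A replicate block in place of the sort called 2 genes, Ackr1 and Vwf, but the correlation of deviations between equal replicate numbers was 0.0269, and the labels do not say that a number pairs libraries. Of 712 values of 51 named genes under these alternatives 711 kept their direction. The 1 that reversed was Pcna, a replication factor, at 0.32 on the log2 scale without cells of over 50000 UMIs, against -0.30. These values are not independent: all settings refit the same libraries. The fit of the CD45+ sort alone is counted again for each CD4/8+ library left out. Many of the named genes were picked for a low p, so a kept direction is weak support. An interaction of treatment and sort called 0 genes with edgeR, with 47 at an unadjusted p under 0.05, and no other tool was run on it. The difference in share in the CD45+ sort, 0.181 points, kept its sign under these settings. It ranged from 0.0857 to 0.276 when a library was left out. None of the settings changed the exclusions of the rule, before which the order of the shares was the other way in both sorts. In the CD4/8+ sort the difference of 0.421 points was 0.434 with 3 rule genes and 0.415 at 1000 UMIs or more. With 21 untreated cells, a gene in few cells can be missed, and single cells of high depth set several levels. The cause of these changes was not tested.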
